A study of Mus musculus with 6 samples.

Results

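The enzymes that make serine, asparagine and proline, feed carbon units into mitochondrial folate and convert cystathionine to cysteine were followed in primary mouse proximal tubular epithelial cells under erastin2. The 10 genes were picked by symbol: Phgdh, Psat1 and Psph for serine, Shmt2, Mthfd2 and Mthfd1l for mitochondrial one-carbon units, Cth for cysteine, Asns for asparagine, and Aldh18a1 and Pycr1 for proline. All 10 were among the 24421 rows of the deposited table and among the 11559 genes tested. Every library came from cultured kidney cells given 20 µM erastin2 for 24 h; 3 libraries carry the genotype label Atg5F/F and 3 the label Atg5KO. Erastin2 is an erastin analogue that blocks the cystine and glutamate antiporter, and ATG5 is needed to attach LC3 to autophagosome membranes. No untreated cells were analysed here, so genotype differences already there before erastin2 and those that need it cannot be told apart. The labels put all 6 libraries in 1 batch and name no Cre driver, deleted exon, animal, age or culture behind a replicate. The spread that the p-values are set against may therefore be technical.

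De novo serine synthesis branches off glycolysis in the cytosol. Serine then gives up a carbon to tetrahydrofolate inside mitochondria, and that carbon leaves as formate for purine, thymidylate and methyl group synthesis. Serine is also the backbone of the cysteine made by transsulfuration, a second source of cysteine when cystine import is blocked. Asparagine is made from aspartate and glutamine, and proline from glutamate. Many of these enzyme genes are known targets of ATF4, the transcription factor of the amino acid response.

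Expression is given as FPKM, fragments scaled to gene length and to the counted library, which allows levels to be compared between genes. The recovered totals were 15528454 to 30004933 reads per library, and each value of the 10 genes rested on 225 to 12820 reads. The Atg5 transcript did not fall under the KO label: its mean was 8.55 ± 0.54 FPKM in F/F-labelled and 12.5 ± 0.94 FPKM in KO-labelled libraries (SD, n = 3), so a whole-gene value does not check the genotype and each direction below rests on the labels. Of 16 proximal tubule markers, 8 stayed below 1 FPKM in every library, among them the transporters Slc34a1, Slc5a2 and Slc22a6 and the endocytic receptor Cubn. The 7 tested markers, which include Lrp2 and Ggt1, had 6 lower and 1 higher, and the summed level of the list was 227 to 250 FPKM in F/F-labelled and 128 to 140 FPKM in KO-labelled libraries. Of 10 fibroblast and myofibroblast markers, Acta2, Tagln and Postn were higher and the other 7 (Col1a1, Col1a2, Col3a1, Pdgfra, Pdgfrb, Dcn and Lum) were below 1 FPKM throughout. Postn was below 1 FPKM in every F/F-labelled library and was tested only because it reached 1 FPKM in the KO-labelled ones. That list summed to 66.6 to 73.3 FPKM against 238 to 296 FPKM. All 10 markers of the loop, distal tubule and collecting duct were below 1 FPKM. Endothelial markers summed to 11.1 to 12.7 FPKM against 7.88 to 9.76 FPKM, with 5 of 7 (Pecam1 and Cdh5 included) below 1 FPKM. Macrophage and leukocyte markers summed to 15.6 to 18.5 FPKM against 14.9 to 16.7 FPKM, with Adgre1 and Itgam at 0 and Ptprc and Lyz2 below 1 FPKM. The part of these marker shifts in the results below was not tested. In bulk RNA, fewer cells of a type and less RNA per cell cannot be told apart.

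All 10 genes had a lower mean in KO-labelled than in F/F-labelled libraries, and 6 of them passed the test. Lower were Cth, Psat1, Psph, Phgdh, Aldh18a1 and Mthfd2, and not called were Asns, Mthfd1l, Pycr1 and Shmt2 (limma, Benjamini-Hochberg adjusted p under 0.05 over all genes tested). The 6 of 10 stand beside 17.9% of all tested genes called lower, and the 0 of 10 called higher beside 21.3%. The median log2 fold change of the 10 genes was -0.18, against 0.02 over all genes tested. Fold changes are KO-labelled minus F/F-labelled in log2(FPKM + 1) units, so changes of low genes are understated. In 8 of the 10 genes every KO-labelled value lay below every F/F-labelled value, a pattern found in 23.2% of tested genes. Exact permutation over samples gave p = 0.1, two-sided, for each of those 8, and 3 libraries against 3 allow no smaller value. Together the 10 genes summed to 1098 ± 29 FPKM in F/F-labelled and 930 ± 28 FPKM in KO-labelled libraries (SD, n = 3).

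**Figure D1:**
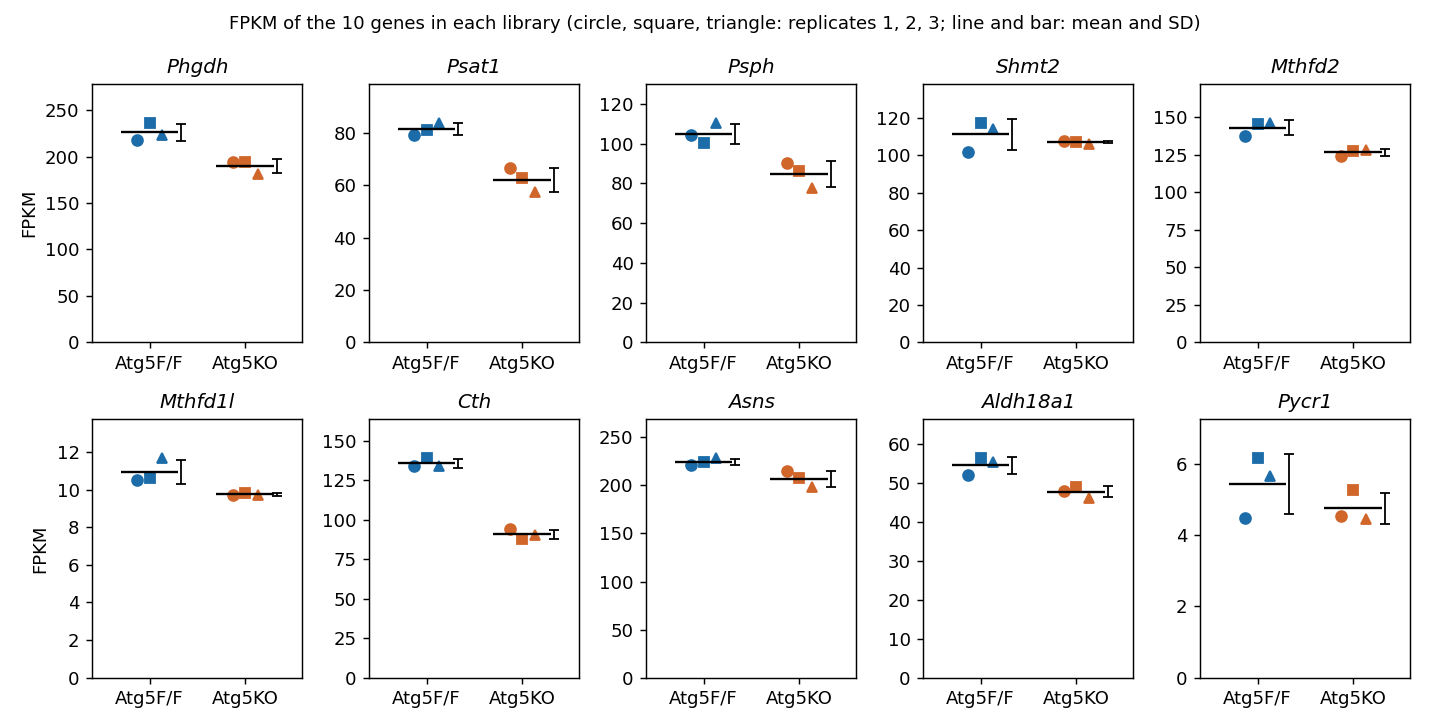
FPKM (vertical axes, each from 0) of the 10 genes in each library, Atg5F/F-labelled in blue and Atg5KO-labelled in orange; symbols mark replicates, lines the means and bars the SD (n = 3). The groups are apart in 8 panels and overlap for Shmt2 and Pycr1.

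RefSeq promoter windows on GRCm38.p6, from 250 bases before to 50 after a start site, were at hand for 9 of the 10 genes (not Cth). They were searched on both strands for 3 motifs: TGATGNAA, the core of the composite element that ATF4 and C/EBP factors share; TGACNNNGC, the core of the antioxidant response element; and CACGTG, the E-box. The first was in Asns and Pycr1, in 3.97% of all 32851 windows and in 2.53% of the 8748 tested genes with a window. The second was in Phgdh, Psph and Asns, in 12.4% of windows and in 17.4% of those tested genes. The third was in Aldh18a1, in 7.15% of windows and in 12.3% of those tested genes. The matches are letters in a window, not shown to be bound. The match in Psph begins at base 5 after the start site and is not shown. The lines below show the 5 matches whose motif and 10 bases on either side lie before the RefSeq start site. In GENCODE, whose coordinates are given further below, Asns begins at 7693254, so the first Asns line lies inside that gene. All lines run 5′ to 3′ along the gene's strand, with the motif in capitals. In the Phgdh line and the second Asns line the antioxidant core is on the other strand. Their capitals therefore show the reverse complement of TGACNNNGC.
Asns, chr6:7693215-7693242, minus strand: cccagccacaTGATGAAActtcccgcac
Pycr1, chr11:120643834-120643861, minus strand: gccctgtgtaTGATGCAAtgcacaaggc
Phgdh, chr3:98340004-98340032, minus strand: gcccggggagGCGGAGTCAgcagagttta
Asns, chr6:7693363-7693391, minus strand: tatcctgcctGCAGTGTCAcagcacctta
Aldh18a1, chr19:40588507-40588532, minus strand: agggggccgcCACGTGgagcgtgggc
The composite core stood in 2 genes that were not called (Asns and Pycr1). The antioxidant core stood in genes on both sides of the threshold, Phgdh and Psph being called lower and Asns not called. The E-box stood in Aldh18a1, which was called lower.

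The 3 enzymes of serine synthesis were all lower in KO-labelled libraries, with the smallest fold change at the first step. Phgdh, the dehydrogenase that commits 3-phosphoglycerate to serine (chromosome 3, 98313170 to 98339990 in GRCm38), stood at 218, 236 and 224 FPKM in F/F-labelled replicates 1 to 3 and at 194, 194 and 181 FPKM in KO-labelled ones. No KO-labelled library reached the lowest F/F-labelled one, and the KO-labelled mean was 83.9% of the other (log2 fold change -0.25, SE 0.047, limma adjusted p = 0.0034). GENCODE also holds a processed pseudogene of Phgdh, and how reads shared with it were counted is not stated. Psat1, the aminotransferase of the next step (chromosome 19, 15904678 to 15947337), measured 79.3, 81.2 and 83.7 FPKM against 66.4, 62.6 and 57.2 FPKM. Its groups were the more widely separated, with a KO-labelled mean at 76.2% of the F/F-labelled one (-0.39, SE 0.055, limma adjusted p = 7.6e-04). Psph, the phosphatase that releases serine (chromosome 5, 129765558 to 129787449), went from 104.5, 100.2 and 110.3 FPKM to 90.2, 86.2 and 77.8 FPKM, a mean of 80.7% (-0.31, SE 0.060, limma adjusted p = 0.0041). The start of Psph overlaps that of Cct6a on the opposite strand in GENCODE, and the sources do not state whether counting used strand. Cct6a stood at 163.6 ± 2.7 and 157.8 ± 5.0 FPKM (-0.05, limma adjusted p = 0.32).

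The proportions of the serine enzymes within a library were compared as well. The ratio of Psat1 to Phgdh ranged over 0.344 to 0.374 with the F/F label and 0.315 to 0.343 with the KO label, and that of Psph to Psat1 1.23 to 1.32 against 1.36 to 1.38, both without overlap. The ratio of Psph to Phgdh overlapped, at 0.424 to 0.494 against 0.429 to 0.466. These ratios were computed after the fold changes were known and were not tested.

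Of the 3 mitochondrial folate enzymes downstream of serine, Mthfd2 was lower, and Shmt2 and Mthfd1l did not pass the test. Shmt2, which takes a carbon from serine and leaves glycine (chromosome 10, 127517123 to 127522444), gave 102, 117 and 114 FPKM in F/F-labelled and 108, 107 and 106 FPKM in KO-labelled libraries. The KO-labelled values sat inside the F/F-labelled range, and the difference was -0.05 (95% interval -0.17 to 0.07, limma adjusted p = 0.48). Shmt2 overlaps Ndufa4l2 on the opposite strand, and Ndufa4l2 was below 1 FPKM on average. Mthfd2, the dehydrogenase and cyclohydrolase that oxidizes the carbon to the formyl level (chromosome 6, 83305691 to 83325908), had 137, 145 and 146 FPKM against 124, 127 and 128 FPKM. Its groups were apart and its KO-labelled mean was 88.5% of the F/F-labelled one (-0.17, SE 0.040, limma adjusted p = 0.0085). Quantile normalization ended that call (-0.11, adjusted p = 0.065). Mthfd1l, the ligase that frees formate (chromosome 10, 3973118 to 4167081), was one of the less abundant genes, at 10.5, 10.6 and 11.7 FPKM against 9.70, 9.85 and 9.72 FPKM. The KO-labelled libraries were tightly grouped just under the F/F-labelled ones. The difference of -0.15 (95% interval -0.27 to -0.03) missed the threshold at adjusted p = 0.052 and passed it in 6 of 16 other settings, with adjusted p from 0.016 to 0.19.

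Cth, the lyase that releases cysteine from cystathionine (chromosome 3, 157894248 to 157925077), had the largest fold change of the 10. Its values were 134, 139 and 134 FPKM in F/F-labelled and 93.7, 87.9 and 90.2 FPKM in KO-labelled libraries, so the groups were far apart relative to the spread within either. The KO-labelled mean of 90.6 ± 2.9 FPKM was 66.9% of the F/F-labelled 135.5 ± 2.7 FPKM (SD, n = 3), and limma put the log2 difference at -0.58 (SE 0.039, adjusted p = 1.5e-05). Cbs, which makes the cystathionine that Cth splits, was near the detection filter at 1.29, 1.62 and 1.25 FPKM against 0.871, 0.874 and 1.15 FPKM (-0.28, adjusted p = 0.057).

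Of the asparagine and proline enzymes, Aldh18a1 was lower and Asns and Pycr1 were not called. Asns, asparagine synthetase (chromosome 6, 7675169 to 7693254), read 222, 224 and 228 FPKM in F/F-labelled and 215, 207 and 198 FPKM in KO-labelled libraries. The groups did not overlap, yet the difference of -0.12 (95% interval -0.22 to -0.02) had an adjusted p = 0.057. It passed the threshold under median-ratio scaling (0.025), with voom on recovered reads (0.019) and without Atg5KO replicate 1 (0.049), and over all 16 other settings its adjusted p ran from 0.019 to 0.26. Aldh18a1, the synthase that makes the pyrroline precursor of proline from glutamate (chromosome 19, 40550257 to 40588463), measured 52.2, 56.3 and 55.4 FPKM against 48.0, 49.1 and 46.2 FPKM. Every KO-labelled library was lower, with a mean at 87.4% (-0.19, SE 0.042, limma adjusted p = 0.0079). Pycr1, the reductase of the last step (chromosome 11, 120635712 to 120643769), was the lowest gene of the set at 4.48, 6.14 and 5.65 FPKM against 4.54, 5.25 and 4.44 FPKM. Its groups overlapped (-0.16, 95% interval -0.39 to 0.08, limma adjusted p = 0.26). F/F-labelled replicate 1 was as low as the KO-labelled libraries, and without that library the difference was -0.27 at adjusted p = 0.044. The adjusted p for Pycr1 ran from 0.044 to 0.61 over the 16 other settings.

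**Figure D2:**
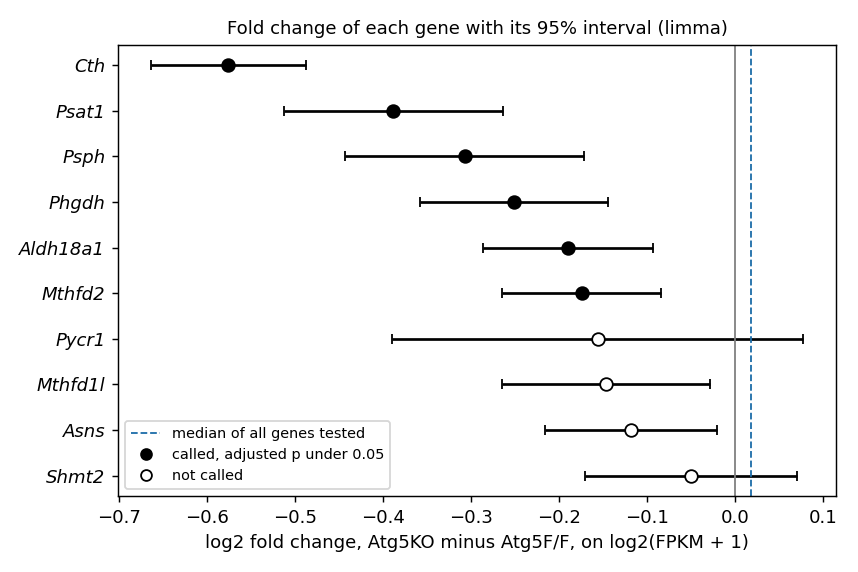
Log2 fold change of each gene (horizontal axis, Atg5KO-labelled minus Atg5F/F-labelled) with its 95% interval from limma; filled points passed the test. Cth lies farthest from 0 at -0.58, the dashed line is the median of all genes tested (0.02), and the intervals of Shmt2 and Pycr1 include 0.

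The authors' deposited table, made with edgeR per the submitters' processing notes, put 8 of the 10 genes at an FDR under 0.05, all lower, beside 11.4% of its 24421 rows. That share counts every row, while only 18296 genes were above 0 in any library. It is therefore not like the 17.9% of tested genes that limma called lower. Of the 8, the 2 that limma did not call were Asns (log2 fold change -0.15, FDR 0.0040 in the authors' deposited table) and Mthfd1l (-0.19, FDR 0.013). Shmt2 and Pycr1 had an FDR of 0.24 and 0.12 in the authors' deposited table.

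By level, the set spans a wide range. In F/F-labelled libraries the order from the top was Phgdh (226 ± 9.1 FPKM), Asns (224.6 ± 3.2), Mthfd2 (142.9 ± 4.9), Cth (135.5 ± 2.7), Shmt2 (111 ± 8.1), Psph (105 ± 5.1), Psat1 (81.4 ± 2.2), Aldh18a1 (54.6 ± 2.2), Mthfd1l (10.9 ± 0.64) and Pycr1 (5.43 ± 0.85). Neighbouring values overlapped for Phgdh and Asns, for Mthfd2 and Cth, and for Shmt2 and Psph. In KO-labelled libraries each of these 3 pairs was apart: Asns (206.9 ± 8.6) lay above Phgdh (189.7 ± 7.2), Cth (90.6) lay below both Mthfd2 (126.5) and Shmt2 (107.2), and Psph (84.7) lay below Shmt2. Phgdh and Asns stood at the 98.4 and 98.3 percentiles of tested genes in F/F-labelled libraries, Mthfd1l at the 43.2 and Pycr1 at the 25.0 percentile.

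KO-labelled replicate 3 was the lowest of its group for 7 of the 10 genes, replicate 1 for 2 (Mthfd2 and Mthfd1l) and replicate 2 for 1 (Cth). Among F/F-labelled libraries replicates 2 and 3 were each the highest for 5 genes and replicate 1 for none. Across tested genes, the deviation of KO-labelled replicate 3 from the gene means had a Spearman correlation of 0.34 with gene length, against 0.11 and 0.04 in the other KO-labelled and -0.16 to -0.23 in the F/F-labelled libraries. Without KO-labelled replicate 3 the log2 fold changes were -0.57 for Cth, -0.33 for Psat1, -0.25 for Psph, -0.22 for Phgdh, -0.18 for Mthfd2 and -0.17 for Aldh18a1, and each still passed the test. With each library's length trend removed they were -0.55, -0.39, -0.27, -0.22, -0.16 and -0.22 in the same order, also all called.

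The wider pathways were read from 5 lists, written from general knowledge with earlier results of these data known. Counts from them are therefore not independent of those results. The lists were serine and glycine, folate one-carbon, methionine and transsulfuration, asparagine with aspartate and glutamine, and proline with ornithine. They held 87 further rows of the table, of which 70 were tested. Of those, 34 were lower (48.6%, beside the 17.9% of all tested genes), 4 were higher and 32 did not pass the test. Their median log2 difference was -0.18.

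**Figure D3:**
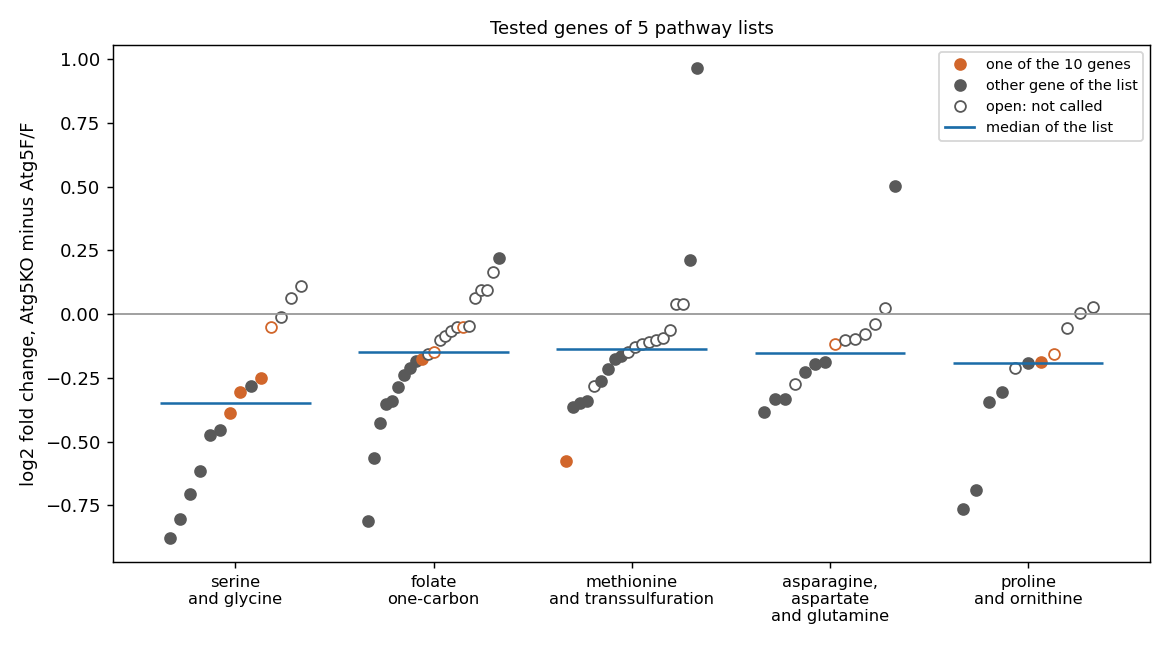
Log2 fold change (vertical axis, Atg5KO-labelled minus Atg5F/F-labelled) of every tested gene of the 5 pathway lists; orange points are the 10 genes, grey points the other list genes, open points were not called and blue lines are list medians. Cdo1 at 0.97 is the highest point, and Amt at -0.88 is the lowest.

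In the serine and glycine list, 7 of 10 further genes were lower and 0 higher (median -0.46). Among the lower genes were Gldc and Amt of the glycine cleavage system, a mitochondrial complex that breaks glycine down and passes its carbon to folate. Gldc, the decarboxylase, stood at 10.2, 12.7 and 11.5 FPKM in F/F-labelled and 6.31, 5.34 and 6.80 FPKM in KO-labelled libraries (-0.80, SE 0.094, limma adjusted p = 2.7e-04). Amt, the aminomethyltransferase, went from 13.4, 13.5 and 14.3 FPKM to 6.85, 6.24 and 7.98 FPKM (-0.88, SE 0.077, limma adjusted p = 6.1e-05). The KO-labelled mean was 51.2% of the F/F-labelled one for Amt and 53.6% for Gldc, with the groups well apart. Glyctk, glycerate kinase, named after its value was seen, had as low a share at 50.4%, but from a low level of 1.29 ± 0.082 FPKM (-0.47, limma adjusted p = 0.0043). Glyctk was below 1 FPKM in every KO-labelled library and was tested only because it reached 1 FPKM in the F/F-labelled ones. The remaining subunits, named after their values were seen, were not called: Gcsh, the carrier protein, at 28.2 ± 0.77 and 30.6 ± 2.2 FPKM (0.11), and Dld, the dehydrogenase shared with other complexes, at 77.8 ± 5.1 and 77.1 ± 2.3 FPKM (-0.01). Sardh, which oxidizes sarcosine to glycine, fell by 0.70 and Sdsl, a serine dehydratase-like enzyme, by 0.62 on the log2 scale.

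In the folate list, 9 of 20 further genes were lower and 1 higher (median -0.13). The formyltetrahydrofolate dehydrogenases, which burn one-carbon units to carbon dioxide, were lower in both compartments. Cytosolic Aldh1l1 had 3.46, 4.93 and 3.99 FPKM against 1.64, 1.94 and 2.14 FPKM (-0.81, SE 0.11, limma adjusted p = 7.4e-04). Mitochondrial Aldh1l2 was far more abundant, at 67.2, 75.8 and 74.5 FPKM against 53.3, 52.0 and 55.4 FPKM (-0.43, SE 0.051, limma adjusted p = 3.2e-04). The reduced folate carrier Slc19a1 (-0.57) and Fpgs, which adds the glutamate tail that keeps folate in the cell (-0.35), were lower as well.

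In the methionine and transsulfuration list, 7 of 19 further genes were lower and 2 higher (median -0.13). Cdo1, the dioxygenase that oxidizes cysteine, rose from 4.71, 4.50 and 4.68 FPKM to 10.5, 8.77 and 10.8 FPKM, with the KO-labelled libraries all above the others (0.97, SE 0.076, limma adjusted p = 3.5e-05). The other higher gene, named after its value was seen, was Mat2b, the regulatory subunit of methionine adenosyltransferase (29.9 ± 1.3 to 34.9 ± 1.5 FPKM, 0.21). Csad, which acts after Cdo1 on the way to taurine, was lower (-0.35). Adi1 of methionine salvage (-0.36) and Mtrr, which reactivates methionine synthase (-0.34), were lower too.

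Among asparagine, aspartate and glutamine genes, 6 of 13 further genes were lower and 1 higher (median -0.19). The aminotransferases Got1 (-0.39), which handles aspartate in the cytosol, and Gpt2 (-0.33), which makes alanine in mitochondria, were lower, as was Asl (-0.33), the argininosuccinate lyase.

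In the proline and ornithine list, 5 of 9 further genes were lower and 0 higher (median -0.21), with the largest decreases in Prodh and Oat. Oat, ornithine aminotransferase, went from 95.2, 105.1 and 98.7 FPKM to 59.5, 61.9 and 62.6 FPKM (-0.69, SE 0.045, limma adjusted p = 1.2e-05). Prodh, proline dehydrogenase, went from 11.6, 14.1 and 12.02 FPKM to 6.04, 7.48 and 7.53 FPKM (-0.76, SE 0.093, limma adjusted p = 3.4e-04). No KO-labelled library reached an F/F-labelled one for either gene. Arg2, the mitochondrial arginase (-0.35), and Pepd, which frees proline from dipeptides (-0.31), were also lower.

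Several members have a related enzyme in another compartment or a partner that works against or before them, and 8 such pairs were compared as log2 ratios of FPKM within each library. The ratio of Mthfd2 to Mthfd2l, its low-abundance mitochondrial relative, went from 4.92, 5.01 and 5.01 with the F/F label to 4.43, 4.68 and 4.50 with the KO label, a difference of -0.44 without overlap (exact permutation test, two-sided p = 0.1, adjusted p = 0.40 over the 8 pairs). Mthfd2l itself stood at 4.54, 4.50 and 4.53 FPKM against 5.74, 4.95 and 5.66 FPKM, the 1 higher gene of the folate list (0.22, limma adjusted p = 0.027). That call is unsteady: it was kept in 8 of the 15 other settings that could test the gene, and lost without any single library except Atg5KO replicate 2 (adjusted p from 0.061 to 0.090). The ratio of Mthfd2 to Mthfd1, the cytosolic trifunctional enzyme, differed by only 0.07, from a mean of 2.04 to 2.12 (exact permutation p = 0.1, adjusted p = 0.40). Its groups barely cleared each other, the highest F/F-labelled ratio being 2.096 and the lowest KO-labelled one 2.097. Mthfd1 was lower on its own, at 34.7 ± 1.6 and 29.2 ± 0.53 FPKM (-0.24, limma adjusted p = 0.0027).

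For the other 6 pairs the groups overlapped and the exact permutation p lay between 0.4 and 0.8. Among them were Shmt2 to cytosolic Shmt1 (difference -0.12), Mthfd1l to Mthfd1 (0.09), Pycr1 to Pycrl (0.04), Cth to Cbs (-0.05) and Asns to the asparaginase-like Asrgl1 (-0.03). Of these partners Pycrl stood at 20.0 ± 3.1 and 17.1 ± 1.0 FPKM (-0.21, limma adjusted p = 0.12). Shmt1 (5.53 to 5.79 FPKM) and Asrgl1 (9.29 to 8.75 FPKM) were not called either. With 3 libraries a group, no pair could go below p = 0.1 in this exact test.

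**Figure D4:**
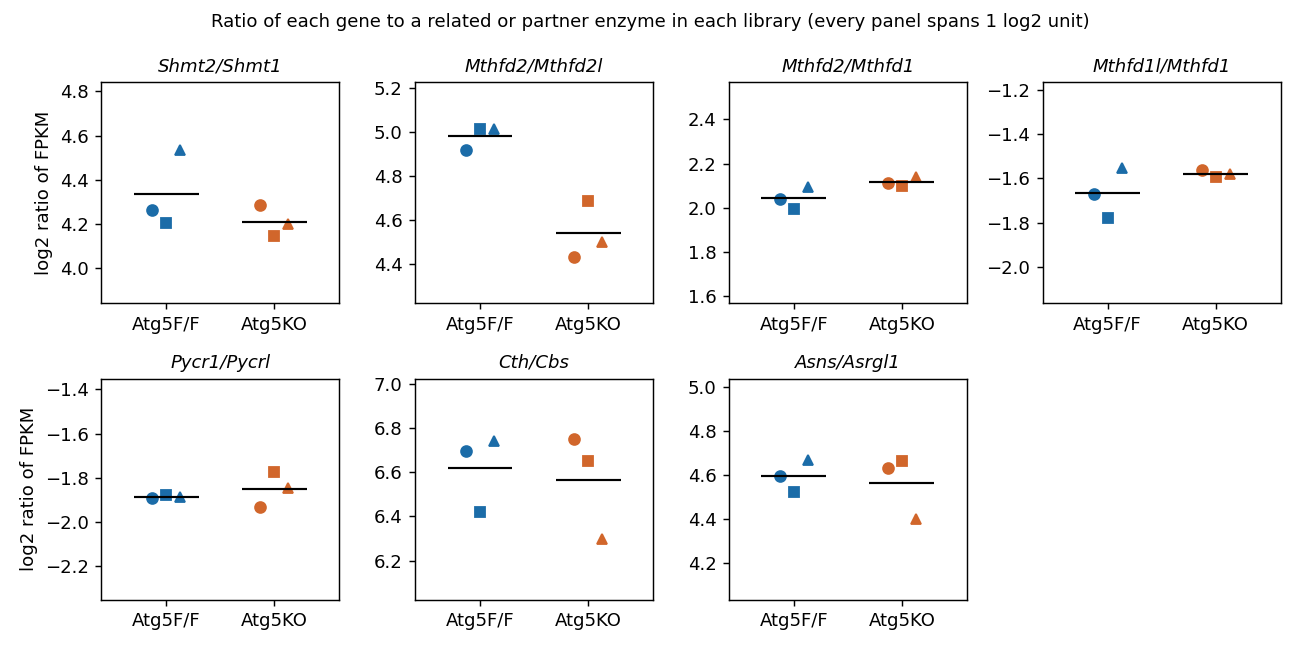
Log2 ratio of FPKM (vertical axes, each spanning 1 log2 unit) for 7 of the 8 pairs in each library, Atg5F/F-labelled in blue and Atg5KO-labelled in orange; circles, squares and triangles are replicates 1 to 3 and lines are means. The groups are apart for Mthfd2/Mthfd2l and Mthfd2/Mthfd1 and overlap in the other panels.

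The genes that drive or report the amino acid response were read from a list of 26 genes of the ATF4 axis. Of these, 11 were lower, 5 higher and 10 not called (median -0.09), beside 17.9% of all tested genes called lower and 21.3% called higher. Without Atg5F/F replicate 3 the lower count was 7. Atf4 itself, named after its value was seen, stood at 512, 508 and 522 FPKM against 495, 488 and 464 FPKM (-0.09, limma adjusted p = 0.16). Fgf21, a secreted stress hormone (1.92 to 0.743 FPKM, -0.74), and the transcription factor Cebpb (-0.47) were lower. Fgf21 was below 1 FPKM in every KO-labelled library and was tested only because it reached 1 FPKM in the F/F-labelled ones. Among the other lower genes, named after their values were seen, were the stress-response genes Ddit3 (-0.38), Eif4ebp1 (-0.29), Trib3 (-0.25), Atf5 (-0.25) and Chac1 (-0.21), the last a glutathione-degrading enzyme. The subunits of the antiporter that erastin2 blocks were among them too, Slc7a11 (17.2 ± 0.10 to 15.2 ± 0.53 FPKM, -0.16) and Slc3a2 (302 ± 12 to 274 ± 6.3 FPKM, -0.14). The calls of Chac1, Slc7a11 and Slc3a2 are near the threshold and were kept in 12, 15 and 9 of 16 other settings. Without Atg5F/F replicate 3 their adjusted p was 0.053, 0.0504 and 0.16, and without Atg5KO replicate 3 that of Chac1 was 0.054. Over the 16 settings the adjusted p of Chac1 ran up to 0.080. Slc3a2 also lost its call without Atg5F/F replicate 1 or Atg5KO replicate 1 or 3 (0.062 to 0.084), with the replicate block (0.056) and under quantile normalization (0.40). Nupr1, a stress-induced chromatin protein (396.7 to 578 FPKM, 0.54), and Eif2ak3, the PERK kinase (0.40), were higher. The other higher genes, named after their values were seen, were Eif2ak2 (0.31) and Eif2ak1 (0.15), which like Eif2ak3 encode kinases of the translation factor eIF2, and Ddit4 (0.26), an inhibitor of mTORC1 signalling. Eif2ak1 kept its call in 9 of 16 other settings and lost it without Atg5F/F replicate 1 or 2 or Atg5KO replicate 1 or 3 (adjusted p from 0.092 to 0.096). Cebpb lost its call without Atg5KO replicate 3 (adjusted p = 0.051), and over 16 other settings its adjusted p ran from 5.4e-04 to 0.059.

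Outside the lists, the 5 genes whose log2 values over the 6 libraries followed the mean standardized profile of the 10 genes most closely included Mcoln1, BC048403, Sod1 and Trim8, with Pearson correlations of 0.999 to 0.992. The points share library depth and the group difference, and 253 of the 8801 genes ranked had a correlation above 0.95. Mcoln1, a lysosomal cation channel gene, stood at 33.6, 35.6 and 35.9 FPKM against 32.1, 32.0 and 30.9 FPKM. Sod1, the cytosolic superoxide dismutase, stood at 408, 453 and 448 FPKM against 349, 358 and 322 FPKM.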

How the data were processed

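The authors deposited 1 table with an FPKM value per gene symbol and library. The submitters' processing notes name GRCm38 (mm10), HISAT2 2.1.0 for alignment after Trimmomatic 0.35 and bcl2fastq, and featureCounts 1.4.6 with edgeR. Libraries used a stranded mRNA kit, per the labels' protocols. No source used here gives the annotation, strand setting, multi-mapping rule or filters. The authors' deposited table also holds a log2 fold change, a p-value with an FDR, and a ranking score that was not used. The column named as adjusted behaves as the unadjusted p-value, since it never exceeds the FDR.

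All tests were limma 3.58.1 in R 4.3.3 (variance trend) on log2(FPKM + 1) of genes reaching 1 FPKM in 3 or more of 6 libraries, adjusted by Benjamini-Hochberg over all genes tested, with calls at adjusted p under 0.05. Intervals are at 95% and unadjusted. Ratios of pairs used exact permutation tests over samples. FPKM steps gave whole reads for all 18296 genes above 0 (100%), rebuilding the deposited FPKM within a relative 2.1e-07. The fit was also run on simulated reads with changes in a small share of genes and no length trend. Those settings differ from these data, so that run does not check the calls above. The members and lists were chosen with earlier results of these data known. Named were all members, Atg5, each partner, up to 4 called genes per list with the largest change, and the 5 genes most alike with a mean of at least 5 FPKM. A few genes that this rule names are not reported here. Coordinates are from GENCODE vM21. There, other annotated genes overlap Mthfd2 (Gm43890), Mthfd1l (Gm16074 and Gm25515), Cth (Gm43314) and Aldh18a1 (Gm15801) on the same strand. Gm3329 overlaps Psat1 on the opposite strand. How reads in these overlaps were counted is not stated. Python 3.11.15 read the tables.

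Other settings were a 0.1 pseudocount, a 5 FPKM filter or none, a replicate block, median-ratio scaling, quantile normalization, voom on recovered reads, robust eBayes, no variance trend, removal of each library's loess trend on length (span 0.5), and leaving out each library.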

Additional observations from a re-analysis of the deposited data

How the results depend on the processing

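Over 16 other settings the count of the 10 genes called lower was 6 to 8 and that called higher was 0. Cth, Psat1, Psph, Phgdh and Aldh18a1 were called in all 16, with log2 fold changes from -0.60 to -0.51, -0.44 to -0.33, -0.35 to -0.25, -0.28 to -0.19 and -0.22 to -0.17. All genes called lower numbered 1486 to 2420 and higher 1779 to 2802, and the further pathway genes called lower 31 to 37 and higher 3 to 4. Shmt2 turned to 0.032 under quantile normalization (adjusted p = 0.65); the cause was not tested. With a single library left out, the difference in log2 ratio ran from -0.0036 to 0.0752 for Pycr1 to Pycrl, from -0.153 to 0.0825 for Cth to Cbs and from -0.0812 to 0.0497 for Asns to Asrgl1, so these directions are not fixed. Correlations of same-numbered libraries' deviations were 0.16, 0.08 and -0.02, and those of differently numbered libraries ran from -0.13 to 0.05. These values do not settle whether the numbers pair samples. The main fit treated the samples as unpaired. With the replicate block, the same 6 were called lower, Slc3a2 lost its call, and 2137 of all genes were lower and 2531 higher. Removing 1 library leaves 2 in its group, and the test then pools the spread with the other group. Reads bound the precision most for Pycr1, the gene with the fewest.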
